A study of Arabidopsis thaliana with 7 samples.

Results

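The genes of protein synthesis were followed through 6 lists of genes that lay at or near open chromatin peaks of *msh1* memory plants of *Arabidopsis thaliana*. Members were taken from the descriptions in the lists. A gene was included when the text before the first semicolon named a ribosomal protein, a ribosome, translation initiation, an elongation factor or a tRNA synthetase, and pentatricopeptide proteins were left out. This gave 59 genes, of 2600 genes in any list and of 27444 nuclear protein-coding genes in the reference. By the compartment in which the protein works, 6 members were organellar, 45 were cytosolic and 8 were assigned to neither.

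Open chromatin was assayed by FAIRE-seq, in which chromatin is fixed with formaldehyde, sheared and extracted with phenol, so that DNA with little bound protein is recovered from the aqueous phase. The plants were 3 individuals of the *msh1* memory line and 2 wild type individuals, all Columbia-0, kept on MS medium at 24 °C under 12 h light and 12 h dark, and whole rosettes were taken at 14 days. A memory line is transgene-free and descends from plants in which *MSH1* had been silenced, a nuclear gene whose protein acts in mitochondria and plastids. Both wild type libraries, named in the lists only as C2 and C3, served as controls for every memory plant, and each of the resulting 6 lists rests on 1 memory plant and 1 wild type plant. Which wild type replicate is C2 and which is C3 is not stated in words. A listing is presence or absence: the authors associated the gene, with a window of 2 kb up- and downstream, with a peak of the memory library over its control. No peak height, position or count was used here, the sequencing depth is unknown, and there is no error on a single listing. The spread over the 3 memory plants and the 2 controls is given instead. Whole rosettes mix cell types, and chromatin that is more open in each cell cannot be told apart from the same chromatin being open in more cells. The lists hold no expression levels against which the tissue label could be checked.

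Ribosomes are built from a large and a small subunit, and plant cells run separate ribosomes in the cytosol, the plastids and the mitochondria. The cytosolic ribosomal proteins are encoded in the nucleus by small families of near-equivalent copies, most of the organellar ones are nuclear as well, and initiation factors, elongation factors and aminoacyl-tRNA synthetases load the ribosome, move it and charge the tRNAs it reads. Promoters of Arabidopsis ribosomal protein genes are known for short elements, among them the telo box and the site II element.

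The upstream sequences of 7 members are shown because these genes carry the patterns described below. *RPS21C*, *RPL13B* and *LOS1* were in all 6 lists and hold both elements, *RPL14A* was in all 6 lists and holds the site II element alone, *RPL23AA* was in all 6 lists and holds neither, and the *RPL9* genes are a pair of copies. Each sequence is the 250 bases before the annotated start of the gene in RefSeq TAIR10.1, written 5′ to 3′ on the strand of the gene. Capitals mark the telo box (AAACCCTAA) and the site II element (TGGGCC or TGGGCT), both searched on either strand. The telo box and site II letters did not overlap in any of them.
RPS21C AT5G27700 chr5:9808514-9808763, minus strand: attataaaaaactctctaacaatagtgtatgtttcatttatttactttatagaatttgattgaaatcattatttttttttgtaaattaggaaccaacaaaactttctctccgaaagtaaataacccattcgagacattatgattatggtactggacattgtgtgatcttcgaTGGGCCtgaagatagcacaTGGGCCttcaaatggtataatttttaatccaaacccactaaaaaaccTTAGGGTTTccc
RPL13B AT3G49010 chr3:18168701-18168950, minus strand: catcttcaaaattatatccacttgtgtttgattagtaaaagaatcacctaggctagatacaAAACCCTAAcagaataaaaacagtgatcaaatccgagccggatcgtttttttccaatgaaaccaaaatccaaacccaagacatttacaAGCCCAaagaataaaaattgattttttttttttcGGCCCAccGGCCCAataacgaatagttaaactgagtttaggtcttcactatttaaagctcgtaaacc
LOS1 AT1G56070 chr1:20971743-20971992, minus strand: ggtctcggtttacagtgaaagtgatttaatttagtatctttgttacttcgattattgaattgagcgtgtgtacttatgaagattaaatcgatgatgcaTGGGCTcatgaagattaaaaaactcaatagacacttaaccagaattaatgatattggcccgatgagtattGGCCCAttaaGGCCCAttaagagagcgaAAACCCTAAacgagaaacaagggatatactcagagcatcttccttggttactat
RPL14A AT2G20450 chr2:8813582-8813831, plus strand: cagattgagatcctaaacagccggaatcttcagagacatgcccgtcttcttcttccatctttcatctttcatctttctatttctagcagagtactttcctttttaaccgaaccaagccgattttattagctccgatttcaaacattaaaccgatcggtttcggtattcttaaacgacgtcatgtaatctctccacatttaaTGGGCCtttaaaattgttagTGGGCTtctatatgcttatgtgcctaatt
RPL23AA AT2G39460 chr2:16473899-16474148, plus strand: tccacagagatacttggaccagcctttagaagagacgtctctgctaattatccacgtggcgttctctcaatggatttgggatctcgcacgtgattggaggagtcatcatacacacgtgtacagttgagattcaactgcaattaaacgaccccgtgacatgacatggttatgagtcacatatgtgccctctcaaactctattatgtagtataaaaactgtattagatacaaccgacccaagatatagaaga
RPL9C AT1G33120 chr1:12010629-12010878, plus strand: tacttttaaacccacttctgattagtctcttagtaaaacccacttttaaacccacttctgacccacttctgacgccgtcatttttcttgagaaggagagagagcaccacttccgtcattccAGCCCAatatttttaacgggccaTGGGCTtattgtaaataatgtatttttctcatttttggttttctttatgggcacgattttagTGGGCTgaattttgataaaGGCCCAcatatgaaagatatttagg
RPL9C AT1G33140 chr1:12022975-12023224, plus strand: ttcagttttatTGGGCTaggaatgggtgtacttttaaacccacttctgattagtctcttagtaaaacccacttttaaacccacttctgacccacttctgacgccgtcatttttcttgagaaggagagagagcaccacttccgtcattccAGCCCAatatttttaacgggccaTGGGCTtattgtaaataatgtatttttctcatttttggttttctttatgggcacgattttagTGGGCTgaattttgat
The *RPL9* upstream regions share an unbroken run of 222 identical bases and hold 4 site II elements each, although the shared run does not start at the same distance from the gene. In the whole set, 41 of the 59 members (69.5%) held a site II element in this window, compared with 23.5% of all listed genes and 19.2% of all 27444 genes. A telo box was present in 7 members (11.9%), compared with 2.62% of all listed genes and 2.62% of all genes. These 7 were *RPS21C*, *RPL13B*, *RPL12A*, *RPL36AB*, *LOS1*, *EFTS* and *IF3-4*, and 3 of them were in all 6 lists. A match is a description of the letters and does not show that a factor binds there.

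Whether these elements went with a listing was looked at among cytosolic ribosomal protein genes of the reference, listed or not. The class was inferred from RefSeq product names and location notes, or from other genes with the same product name, and can be wrong for single genes. Of the 36 members that are cytosolic ribosomal proteins, 29 fell in it, and *RPL12A*, *RPS18C* and AT1G33120 were among those without a compartment. The site II element was found in 26 of the 32 listed genes (81.2%) and in 97 of the 143 unlisted genes (67.8%). The telo box was found in 2 listed genes (6.25%) and in 15 unlisted genes (10.5%). *RPL12A* and *RPL13B*, which hold a telo box, are members outside this class. Of all 36 cytosolic ribosomal protein members, 4 (11.1%) held a telo box. The site II element was thus common in this gene class whether or not a gene was listed, and the telo box was in few genes of either group. Among annotated organellar ribosomal proteins, 20 of 53 (37.7%) held a site II element.

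**Figure D1:**
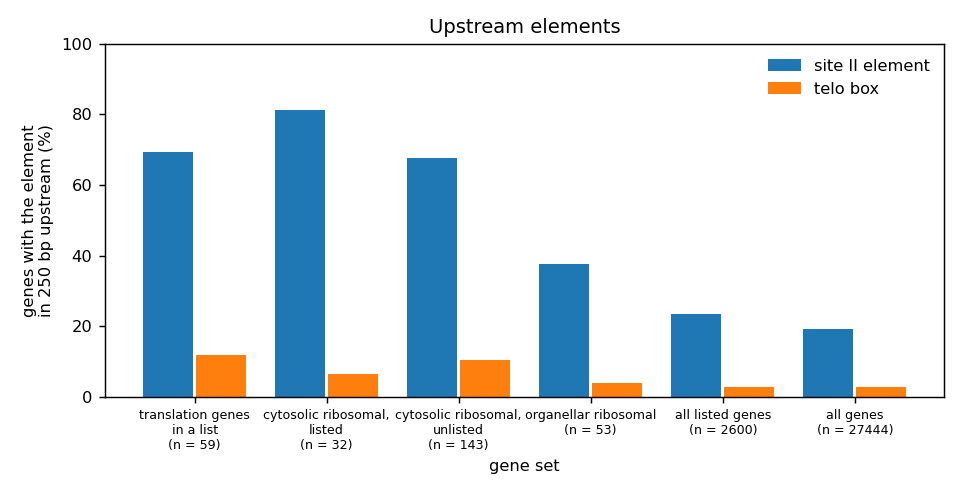
Share of genes (%, vertical axis, from 0 to 100) with a site II element (blue) or a telo box (orange) in the 250 bases upstream, for 6 gene sets with their sizes under the bars. The site II bar is tall for listed (81.2%) and for unlisted (67.8%) cytosolic ribosomal protein genes and low for all genes (19.2%).

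In the lists against C2, the first memory plant had 31 translation genes, and plants 2 and 3 had 26 each. All coding genes gave the background in the same lists: 5.86% were listed for plant 1, 4.72% for plant 2 and 4.42% for plant 3. In the lists against C3, translation genes numbered 28 for plant 1, 32 for plant 2 and 34 for plant 3, where 4.76%, 3.84% and 3.55% of all coding genes were listed in the same order of plants. The lists against C3 were shorter than those against C2 in each plant, yet plants 2 and 3 had more translation genes against C3 than against C2. The members therefore made up 1.93% to 2.14% of the C2 lists, and 2.15%, 3.04% and 3.49% of the C3 lists of plants 1, 2 and 3. The cytosolic ribosomal proteins alone followed the same course, with 18, 17 and 18 genes against C2 and 18, 22 and 21 genes against C3 in plants 1, 2 and 3. With 1 plant behind each side of a list, this difference between the controls was not tested.

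**Figure D2:**
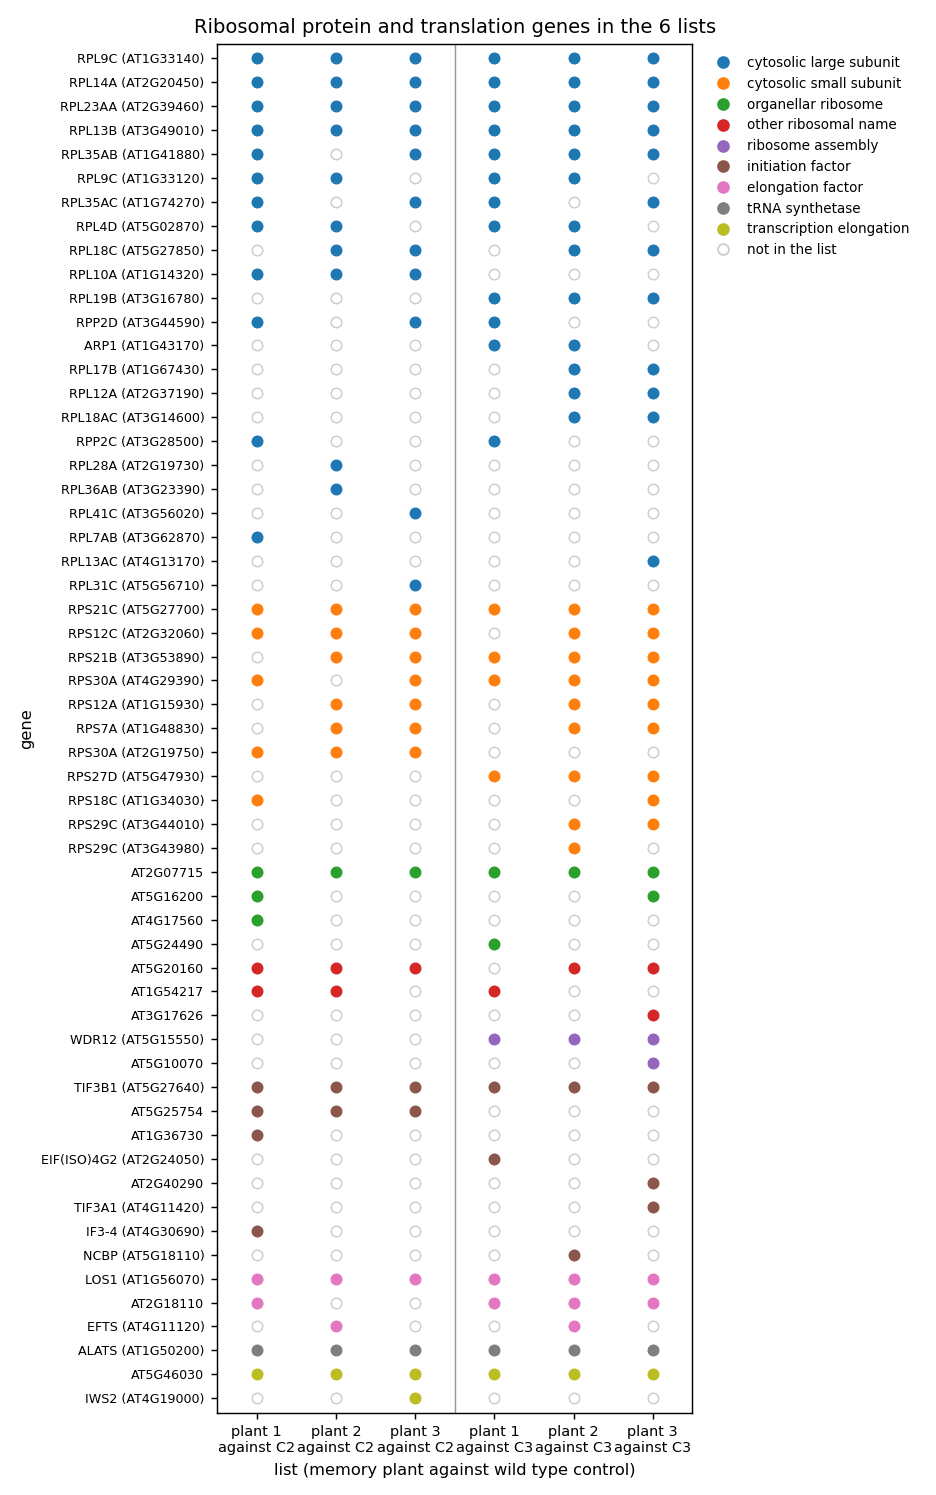
Ribosomal protein and translation genes, 57 of the 59 (rows, coloured by role) in the 6 lists (columns, memory plants 1 to 3 against control C2 and then against C3), where a filled circle means that the gene was in the list. A total of 10 genes fill their row, and 6 of the 8 initiation factor genes have a single filled circle.

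Members recurred about as often as listed genes did in general. Of the 59 members, 10 (16.9%) were in all 6 lists, 5 members in 5 lists, 7 members in 4, 8 members in 3, 11 members in 2 and 18 members (30.5%) in 1. Of all 2600 listed genes, 426 (16.4%) were in all 6 lists and 813 (31.3%) in a single list. The mean was 3.0 ± 1.86 lists per member (SD over 59 genes) and 2.86 ± 1.81 lists per listed gene (SD over 2600 genes). Over all coding genes, 9.47% were in at least 1 list and 1.55% were in all 6 lists. A listing in all 3 memory plants, against either control, was seen for 22 members (37.3%) and for 968 of all listed genes (37.2%).

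**Figure D3:**
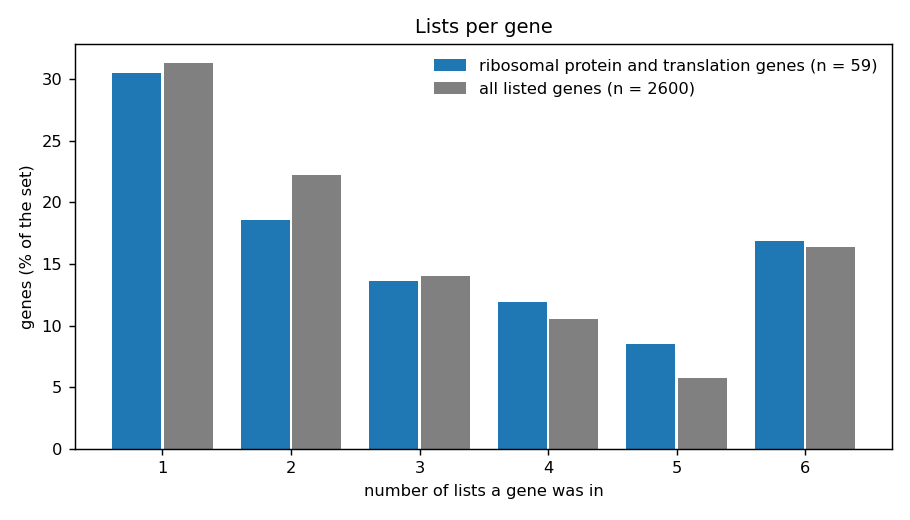
Number of lists a gene was in (horizontal axis) against the share of genes (%, vertical axis, from 0), for ribosomal protein and translation genes (blue, n = 59) and all listed genes (grey, n = 2600). The paired bars are close at 1 list (30.5% and 31.3%) and at 6 lists (16.9% and 16.4%).

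The proteins of the large cytosolic subunit, which carries out peptide bond formation, were the largest group, with 23 members and a mean of 3.04 ± 1.82 lists (SD over genes). Of these, 4 were in all 6 lists: *RPL9C* (AT1G33140), *RPL13B*, *RPL14A* and *RPL23AA*. *RPL14A* (AT2G20450) lies at chr2:8813832-8815379 on the plus strand and spans 1548 bp. Its left neighbour ends 135 bp away, its right neighbour starts 8289 bp away, and neither was listed. *RPL13B* (AT3G49010, chr3:18166708-18168700, minus strand, 1993 bp) lies between an RNA polymerase III subunit gene at 721 bp, which was not listed, and an F-box gene at 378 bp, which was in 1 of the 6 lists. *RPL23AA* (AT2G39460, chr2:16474149-16476141, plus strand, 1993 bp) encodes a protein at the exit of the nascent chain tunnel. It stands 88 bp from a cation efflux gene that was in 1 list and 56 bp from a PsbP-like gene that was in 2 lists. Windows of 2 kb overlap there, and since *RPL23AA* was in all 6 lists, every listing of these neighbours was shared with it. *RPL35AB* (AT1G41880, chr1:15650635-15652542, minus strand, 1908 bp) was missing only from the list of plant 2 against C2.

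Other large subunit genes were in 3 or 4 lists. *RPL4D* (AT5G02870, chr5:657675-659800, plus strand, 2126 bp), whose protein lines the nascent chain tunnel, was listed against both controls in plants 1 and 2 and in no list of plant 3. *RPL35AC* (AT1G74270, chr1:27928171-27929537, minus strand, 1367 bp) was listed against both controls in plants 1 and 3 and in no list of plant 2. *RPL18C* (AT5G27850, chr5:9873067-9874973, plus strand, 1907 bp) was listed against both controls in plants 2 and 3 and in no list of plant 1. These 3 genes thus kept their plants when the control was changed. *RPL10A* (AT1G14320, chr1:4888114-4889704, plus strand, 1591 bp), known in Arabidopsis as a target of the NIK1 kinase in antiviral signalling, was in all 3 lists against C2 and in none against C3. *RPL19B* (AT3G16780, chr3:5708826-5710579, plus strand, 1754 bp) showed the opposite, with all 3 lists against C3 and none against C2. The pattern of these last genes followed the control and not the memory plant. *RPP2D* (AT3G44590), for an acidic protein of the stalk that recruits elongation factors, was in 3 lists, both lists of plant 1 and the C2 list of plant 3.

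The remaining large subunit genes were in 1 or 2 lists. *RPL17B*, *RPL12A* and *RPL18AC* shared 1 pattern, the C3 lists of plants 2 and 3. *ARP1*, which encodes the L3 protein near the peptidyl transferase centre, was in the C3 lists of plants 1 and 2. *RPP2C* was in both lists of plant 1. *RPL28A*, *RPL36AB*, *RPL41C*, *RPL7AB*, *RPL13AC* and *RPL31C* were in a single list each.

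The small cytosolic subunit decodes the mRNA, and its 13 members had a mean of 3.38 ± 1.56 lists (SD over genes). *RPS21C* (AT5G27700, chr5:9807236-9808513, minus strand, 1278 bp) was the only one in all 6 lists. Its nearest coding neighbours lie 1969 bp and 4417 bp away and were in no list. A further 3 genes were in 5 lists. *RPS21B* (AT3G53890, chr3:19955344-19956449, minus strand, 1106 bp) was missing from the list of plant 1 against C2. *RPS12C* (AT2G32060, chr2:13638762-13640431, minus strand, 1670 bp) was missing from the list of plant 1 against C3, and *RPS30A* (AT4G29390, chr4:14464856-14466029, minus strand, 1174 bp) from that of plant 2 against C2. Beside *RPS12C*, at 162 bp, lies AT2G32070, annotated as a polynucleotidyl transferase of the ribonuclease H-like superfamily, which was itself in 5 lists and shared 4 of them.

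*RPS12A* (AT1G15930, chr1:5471316-5473048, plus strand, 1733 bp) and *RPS7A* (AT1G48830, chr1:18059450-18061302, minus strand, 1853 bp) had the pattern of *RPL18C*, listed against both controls in plants 2 and 3 and never in plant 1. In all, 7 members (11.9%) were listed for plants 2 and 3 but not for plant 1, and all 7 were cytosolic ribosomal protein genes. Of all listed genes, 175 (6.73%) had such a pattern. The lists of plant 1 were longer than those of plants 2 and 3 against both C2 (1608 genes, and 1296 and 1213) and C3 (1305 genes, and 1053 and 973). *RPS27D* (AT5G47930, chr5:19406080-19407449, minus strand, 1370 bp) was in all 3 lists against C3 and in none against C2. Its neighbour AT5G47920, annotated as a transcription elongation factor at 1932 bp, was in the same 3 lists and in 1 other, while the other neighbour, annotated as a further S27 gene at 1792 bp, was not listed. The second *RPS30A* gene (AT2G19750, chr2:8514899-8516138, plus strand, 1240 bp) was in all 3 lists against C2 and in none against C3. *RPS18C* and *RPS29C* (AT3G44010) were in 2 lists each, and *RPS29C* (AT3G43980) was in 1.

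Ribosomal proteins are encoded by several copies each, and the listed copies could be set side by side in pairs. The *RPS21* copies, which are all of the 2 annotated S21e genes, were both listed in 5 lists, with *RPS21C* alone in the sixth. The *RPL35A* copies shared 4 lists of the 5 that held either, and the *RPS12* copies shared 4 lists of 5. The *RPS30* copies shared only 2 of the 6 lists. The RPP2 copies shared 2 of 3 lists and the *RPS29* copies 1 of 2. Only pairs with both copies listed were compared. In the reference, 2 of 4 L35Ae genes, 2 of 3 S30 genes and 2 of 3 S14p/S29e genes were listed. Of the 60S acidic ribosomal protein genes, 3 of 11 were listed. These counts thus do not show how often copies are listed together, and sharing between unrelated listed genes was not counted. Among the pairs named so far, whole gene identity was between 49.6% and 59.2%, and the longest identical run was 61 bp, in *RPS29*. Identity was taken over the longer gene with introns included. By the same measure the upstream regions of these pairs were 47.2% to 49.2% identical, so the lower gene values say little about likeness. The *RPL9* pair differed from the others in sequence. AT1G33120 (chr1:12010879-12012547, plus strand, 1669 bp) and AT1G33140 (chr1:12023225-12024783, plus strand, 1559 bp) are 10677 bp apart with no coding gene between, carry the same symbol in the lists, and are 78.1% identical with a shared run of 730 bp. AT1G33140 was in all 6 lists, and AT1G33120 was in 4 of them, missing from both lists of plant 3. Of the 31-mers in these genes, 50.5% in AT1G33140 and 44.5% in AT1G33120 occur more than once in the genome, so a short read from one can be placed on the other, and their listings are uncertain as separate genes.

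Initiation factors bring mRNA and initiator tRNA to the ribosome, and most were listed once. Of the 8 members, 6 were in a single list, and the mean was 1.88 ± 1.81 lists (SD over genes). *TIF3B1* (AT5G27640, chr5:9780609-9785288, minus strand, 4680 bp), a subunit of the scaffold factor eIF3, was the exception with all 6 lists. AT5G25754 (chr5:8953375-8957339, plus strand, 3965 bp), eIF3 subunit L, was in all 3 lists against C2 and in none against C3. In its window 32.7% of 31-mers are repeated in the genome. The genes in a single list were *TIF3A1*, another eIF3 subunit, *EIF(ISO)4G2*, a plant isoform of the cap-binding scaffold, *NCBP*, a cap-binding protein, AT1G36730 (eIF5), AT2G40290 (the alpha subunit of eIF2) and *IF3-4*, of the bacterial type.

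Elongation factors and tRNA charging held fewer genes. *LOS1* (AT1G56070, chr1:20967652-20971742, minus strand, 4091 bp), which encodes the elongation factor eEF2 that translocates the ribosome, was in all 6 lists. Its coding neighbours, at 471 bp and 2418 bp, were each in 1 list. AT2G18110 (chr2:7872201-7874010, plus strand, 1810 bp), a delta subunit of the factor that recharges eEF1A with GTP, was in 4 lists, the C2 list of plant 1 and all 3 lists against C3. *ALATS* (AT1G50200, chr1:18591194-18598569, minus strand, 7376 bp), an alanyl-tRNA synthetase whose location note names mitochondrion and chloroplast, was the single tRNA synthetase among the members and was in all 6 lists. It is the longest of the genes named here with a length.

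A few members fit the keywords and not the label. AT5G46030 (chr5:18670051-18671461, plus strand, 1411 bp), in all 6 lists, and *IWS2*, in 1 list, are transcription elongation factors and act on RNA polymerase II. Without them, 9 of 57 genes were in all 6 lists, with a mean of 2.98 ± 1.83 lists (SD over genes). *WDR12* (AT5G15550, chr5:5058672-5062144, minus strand, 3473 bp), which acts in assembly of the large subunit, was in all 3 lists against C3 and in none against C2, and a second assembly gene, AT5G10070, was in 1 list. AT5G20160 (chr5:6803694-6805226, minus strand, 1533 bp), of the L7Ae family with a nucleolar location note, was in 5 lists, missing from that of plant 1 against C3. AT1G54217, of the L18ae family, was in 3 lists, and AT3G17626, described only as a ribosome constituent, was in 1.

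Organellar members were fewer than cytosolic members and had a lower mean number of lists, with a difference of -0.9 lists that was not tested. The 6 organellar members had a mean of 2.17 ± 1.94 lists (SD over genes, median 1.5), and the 45 cytosolic members a mean of 3.07 ± 1.8 lists (median 3). The difference was smaller than the SD within either set. AT4G17560, for plastid protein L19, and *IF3-4* were each in the C2 list of plant 1 only, AT5G24490, a putative 30S protein, was in the C3 list of plant 1 only, and AT5G16200, a 50S-related protein, was in the C2 list of plant 1 and the C3 list of plant 3. *EFTS*, the mitochondrial nucleotide exchange factor for the elongation factor Tu, was in both lists of plant 2 and in no other.

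The single organellar gene in all 6 lists was AT2G07715 (chr2:3410597-3413161, plus strand, 2565 bp). The lists describe it as a 60S protein L2, but its location note names the mitochondrion, and 96.9% of the 31-mers in its window are also in the mitochondrial genome. It was the only member with at least 10% of such 31-mers, of 10 among all listed genes and 101 among all coding genes. Reads of mitochondrial DNA can be placed in this window, and their part in its listings was not tested. Without it, the difference between organellar and cytosolic members was -1.67 lists. With all 6 organellar members, the difference was -0.9, -0.544 and -0.356 lists over the 4 lists left without plant 1, 2 or 3, and -0.256 over the 3 lists against C2 and -0.644 over the 3 lists against C3.

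The members are by their nature listed, so the share of translation genes that reached a list was taken from RefSeq product names. The keywords were the same, with tRNA ligase added. Of 535 such genes, 74 (13.8%) were in at least 1 list, compared with 9.47% of all coding genes, and 8 (1.5%) were in all 6 lists, compared with 1.55%. The 535 genes include 33 that were set apart by the wording of their product name, chiefly transcription elongation factors, of which 9 (27.3%) were listed. Also set apart were genes of the ribosomal protein S5 domain 2-like superfamily, which may be true ribosomal proteins. Those labelled cytosolic were AT2G09990, AT3G04230 and AT5G18380, in no list, and AT3G49080, in 1 list. They are not counted among the cytosolic ribosomal proteins below. Without these 33, a setting chosen after seeing the data, 65 of 502 genes (12.9%) were in at least 1 list. Of the 74 genes, 49 are members and 25 are not. The descriptions in the lists and the product names differ, and tRNA ligase is not in the member rule. The shares varied across roles. Genes annotated as cytosolic ribosomal proteins were listed in 32 of 175 cases (18.3%), which is 1.93 times the share of all coding genes. Annotated organellar ribosomal proteins were listed in 4 of 53 cases (7.55%), and ribosomal proteins with no compartment given in 12 of 97 (12.4%). Initiation factors were listed in 6 of 60 cases and elongation factors in 4 of 38 (10.5%). For tRNA synthetases, with genes named as tRNA ligases included, it was 5 of 64 (7.81%).

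The higher share of cytosolic ribosomal proteins was present in every list. Against C2 the shares were 9.71% in plant 1, 9.14% in plant 2 and 10.9% in plant 3, which are 1.66, 1.94 and 2.46 times those of all coding genes. Against C3 they were 8.57%, 11.4% and 10.9% in plants 1, 2 and 3, which are 1.8, 2.98 and 3.06 times those of all coding genes. The lowest of these shares was in plant 1 against C3, and the highest in plant 2 against C3. In all 6 lists were 4 of the 175 genes (2.29%). Annotated organellar ribosomal proteins were in 0 to 3 of 53 cases per list, and none was in all 6 lists. AT2G07715, the organellar member in all 6 lists, is not among the 53, because its product name holds none of the keywords. All translation roles together, 9 of 98 organellar genes (9.18%) and 34 of 184 cytosolic genes (18.5%) were in at least 1 list. Without memory plant 1 the organellar share was 4.08%, where all coding genes were at 7.39%. The annotation gave no compartment for 247 of the 535 genes, and 175 of the 184 cytosolic genes are ribosomal proteins. *ALATS* counts as organellar in this annotation. The lists share libraries and are not independent, and no test was made of these shares.

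**Figure D4:**
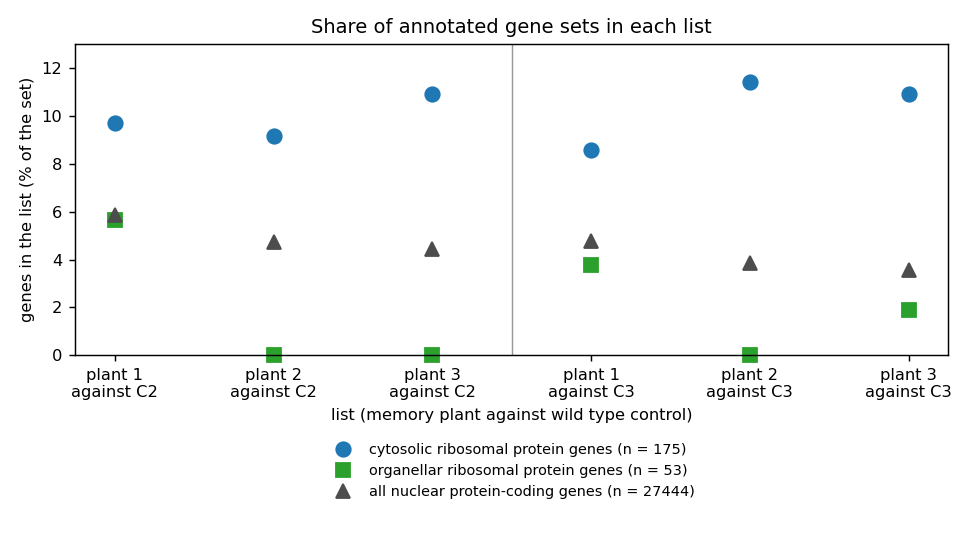
Share of each annotated gene set (%, vertical axis, from 0) found in each of the 6 lists (horizontal axis, memory plants against C2 on the left and against C3 on the right). Cytosolic ribosomal protein genes (blue circles) lie at 8.57% to 11.4% in every list, above all coding genes (grey triangles, 3.55% to 5.86%). Organellar ribosomal protein genes (green squares) lie at or below 5.66%, and AT2G07715 is not in that set.

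Both controls gave a listing for 30 of the 59 members (50.8%), and for 1293 of all listed genes (49.7%). Members listed only against C3 numbered 17 (28.8%) and only against C2 12 (20.3%), whereas all listed genes had 497 (19.1%) and 810 (31.2%). Per plant, 39 members (66.1%) were listed for plant 1, 39 (66.1%) for plant 2 and 41 (69.5%) for plant 3, compared with 74.0%, 63.7% and 58.3% of all listed genes in the same order. The members were thus spread evenly over the plants, while listed genes in general were most often from plant 1. Only plant 1 gave a listing for 8 members (13.6%) and for 571 of all listed genes (22.0%).

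The members lie in compact parts of the genome. Their median gene length was 1754 bp, compared with 2252 bp for all listed genes and 2078 bp for all coding genes. The space to both neighbouring coding genes had a median of 743 bp, compared with 2683 bp and 1856 bp. Short values were not particular to listed genes: the 535 annotated translation genes, listed or not, had medians of 1743 bp and 926 bp. Among annotated cytosolic ribosomal proteins, medians were 1575 bp and 1147 bp in the 32 listed genes. In the 143 unlisted genes they were 1516 bp and 888 bp. Both neighbours were within 2 kb for 39 of the 59 members (66.1%), for 46.7% of all listed genes and for 60.3% of all coding genes. In such places a window of 2 kb covers more than 1 gene, and a listing does not say which gene the peak belongs to. Even so, an adjacent coding gene was in the same list for only 33 of the 177 listings of members (18.6%), and for the other 144 it was not. For all genes it was in the same list for 1420 of the 7448 listings (19.1%). Whether a peak could be given to more than 1 gene was not tested. For the 28 members that were in 4 or more lists or in all 3 memory plants, the nearest coding gene was at a median of 206 bp, and at 0 bp for 6 of them. Of these 28, 17 had no adjacent gene in any of their lists. The other 11 were both *RPL9* genes, *RPL35AB*, *LOS1*, *RPS12C*, *RPL23AA*, *RPL13B*, *RPS30A* (AT4G29390), *RPL4D*, *RPL18C* and *RPS27D*. Adjacent here means the next coding gene at any distance. The listed neighbour was more than 2 kb away for the *RPL9* genes (10677 bp, each other), *RPL35AB* (28435 bp) and *RPL4D* (2135 bp). The same count was not made for all listed genes.

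The windows of 8 members had at least 10% repeated 31-mers, among them both *RPL9* genes, *RPL35AB*, *LOS1*, *WDR12*, AT5G25754 and AT5G46030. The median share of repeated 31-mers was 1.12% in members, 1.27% in all listed genes and 0.421% in all coding genes. The part of repeated sequence in these listings was not tested. Chromosomes 1 to 5 held 14, 11, 12, 7 and 15 members. Of the 10 members in all 6 lists, chromosomes 1, 2 and 5 held 3 each, chromosome 3 held 1 and chromosome 4 none. All listed genes and all coding genes were not counted per chromosome, so these counts are not shares. Near one another on chromosome 5 were *TIF3B1* and *RPS21C*, both in all 6 lists, 21947 bp apart with 5 coding genes between, of which 1 was in a list.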

How the data were processed

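FAIRE-seq of 3 plants of the *msh1* memory line was compared with that of 2 wild type plants, and pools of 3 decrossed plants per genotype, a technical control without lists, were not analysed here. The submitters' processing notes name Trim Galore 0.4.1, cutadapt 1.9.1, Bowtie2 and TAIR10. The peak caller, its threshold and the depth are not given in the sources used here. The authors deposited 6 gene lists, each of 1 memory plant against 1 control, that hold identifiers, symbols and descriptions and no counts. Identifiers were matched to RefSeq TAIR10.1 (0 unmatched), and annotated coordinates are of genes, not peaks. The members and lists were chosen with earlier results of these data known. Every member is counted, and 2 are not reported here by name. Those in 4 or more lists or in all 3 memory plants are named with position. Compartments were taken from names and location notes, which can be wrong. Windows were the gene with 2 kb on both sides, and 31-mers were compared within the genome and with the organelle genomes. Functions were tested on simulated data. Values were computed with Python 3.11.15, pandas 2.3.3 and numpy 2.4.6, and copies were aligned with edlib. No test was made, because the lists give presence or absence per contrast and no value per library. Alternatives left out a memory plant, used 1 control, or changed the member rule.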

Additional observations from a re-analysis of the deposited data

How the results depend on the processing

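Of 42 alternatives for 6 results, 35 kept the value within its tolerance, 7 moved it further and 0 turned its direction. The tolerance was 1.5 times for counts, the 95% Wilson interval for shares and 1 SD over cytosolic members for the difference in lists. That SD (1.8 lists) is larger than the difference itself (-0.9 lists). The alternatives for the difference could therefore hardly fall outside it, and their being kept says little. The 10 members in all lists were 6 with ribosomal proteins and ribosome names alone, and 6 without members whose adjacent gene was in the same list. Requiring fewer lists gave 17 members (28.8%) against C3 alone, compared with 22.2% of all listed genes, and 15 (25.4%) against C2 alone, compared with 30.7%. It gave 12 to 16 members when 1 memory plant was left out, with the highest count without plant 1 (27.1% of members and 18.7% of all listed genes). The share of annotated translation genes in at least 1 list (13.8%) was 10.3% against C2 alone, where all coding genes were at 7.66%, and 10.7% against C3 alone, where they were at 6.52%. The share for annotated organellar translation genes (9.18%) was 4.08% without memory plant 1, where all coding genes were at 7.39%, and 9.18% without memory plant 3, where they were at 8.73%. Without the transcription elongation factors, a setting chosen after seeing the data, 170 of the 177 listings of members were left. No paired analysis was possible because the values come from no test, and every list already sets 1 memory library against 1 control. Absence from a list does not show that a peak was absent, since depth and threshold are unknown.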
